A study of Mus musculus with 16 samples.

Results

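The Fgf receptors and feedback targets described here are 10 mouse genes, taken by name from the count tables: the Sprouty genes Spry1, Spry2 and Spry4, the Ets factor genes Etv4 and Etv5, the phosphatase gene Dusp6, the membrane inhibitor gene Il17rd, and the receptor genes Fgfr1, Fgfr2 and Fgfr3. They are 10 of the 23337 genes counted, and all 10 passed the filter on low counts that left 16287 genes. Poly(A) RNA of first molar germs, the primordia of the first cheek tooth, was sequenced in 16 libraries, 8 labelled upper molar and 8 labelled lower molar. All came from wild-type mice of the outbred CD1 strain labelled as male, at 8 stages 0.5 days apart from ED14.5 to ED18.0 (ED is embryonic day). Each library pooled the left and right germs of 1 embryo. Both teeth of a stage carry the same individual number, so by the labels embryo and stage are 1 factor. Libraries are named here by their tooth label, with no claim that the label is right.

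Fibroblast growth factors (Fgfs) are secreted signals that bind receptor tyrosine kinases and act through the Ras and Erk kinase cascade. In the tooth they pass in both directions between the epithelium, which carries the signalling centres called enamel knots, and the mesenchyme beneath it. Cells answer an Fgf signal by transcribing its own brakes and effectors, so Sprouty genes, Dusp6, Il17rd, Etv4 and Etv5 are widely used as readouts of Fgf activity. In mice lacking Spry2 or Spry4, extra teeth form in the toothless gap of the jaw in front of the molars.

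Some libraries went against their labels. Pou3f3, a transcription factor gene of the upper jaw, measured 109.5 to 132 CPM (counts per 1000000 gene counts of a library) at the whole-day labels of labelled upper (ED15.0, ED16.0, ED17.0 and ED18.0, individuals 2, 4, 6 and 8) and 6.45 to 10.1 CPM at its half-day labels (ED14.5, ED15.5, ED16.5 and ED17.5, individuals 1, 3, 5 and 7). In labelled lower it measured 60.1 to 86.2 CPM at whole-day labels and 4.45 to 5.46 CPM at half-day labels. Xist, the RNA of the inactive X chromosome in females, ran from 1499 to 1831 CPM in labelled upper. In labelled lower it ran from 432 to 1928 CPM, lowest in individuals 1 and 2 (432 and 542 CPM). The upper and lower libraries of these individuals thus lay far apart, although they carry the same individual numbers. Every embryo was labelled male, but 4 Y-linked genes held 2 counts in all 16 libraries together. The names of the deposited files carry 1 code for all libraries labelled upper and another for all labelled lower, and within each label a number that separates individuals 1 to 4 from 5 to 8. What the code and the number stand for is not stated. The tooth label and whatever the code marks cannot be told apart. Each set of 4 libraries held 2 whole-day and 2 half-day labels. Gene counts totalled 33146758 to 38584429 per library in labelled upper and 35918529 to 44565205 in labelled lower. The lowest member count in any library was 1147 (Spry2), so no member lay near the filter on low counts.

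Levels between genes were compared per kilobase of exon, with exon lengths from GENCODE M21 on the build GRCm38 (mm10). The length is that of all annotated exons of a gene together, not of 1 transcript. The annotation used for counting is not stated, so the order and the receptor shares below rest on this choice of length. In labelled upper Dusp6 was highest, at 62.9 ± 9.56 CPM per kb (SD, n = 8), followed by Fgfr1 at 54.4 ± 6.46, Etv4 at 34.1 ± 3.65, Fgfr2 at 30.7 ± 3.86 and Etv5 at 26.3 ± 4.12. Spry1 (22.6 ± 3.32), Spry2 (19.1 ± 2.82), Fgfr3 (11.5 ± 3.05), Spry4 (9.91 ± 0.618) and Il17rd (8.19 ± 1.57 CPM per kb) were lower. Only the steps from Fgfr1 to Etv4 and from Spry2 to Fgfr3 were wider than 1 SD on both sides. The 1 SD ranges of the other neighbours overlapped. Neighbours were measured in the same libraries, and their differences within libraries were not tested. In labelled lower the order was Fgfr1 (75.1 ± 6.97), Dusp6 (70.5 ± 18.5), Etv4 (47.9 ± 5.35), Fgfr2 (31.7 ± 1.74), Etv5 (28.0 ± 1.81), Spry2 (27.3 ± 2.23), Spry1 (24.3 ± 1.89), Spry4 (16.1 ± 2.11), Il17rd (14.3 ± 1.42) and Fgfr3 (11.8 ± 1.81 CPM per kb). There the steps below Etv4, Fgfr2 and Spry1 exceeded 1 SD on both sides. Fgfr1 made up 56.4 ± 1.61% of the length-scaled level of the 3 receptors in labelled upper and 63.2 ± 2.78% in labelled lower (SD, n = 8). Fgfr2 made up 31.8 ± 1.86% in labelled upper and 26.9 ± 2.75% in labelled lower. The share of Fgfr3 was 11.8 ± 2.25% in labelled upper and 9.94 ± 1.37% in labelled lower. Gene counts do not separate the splice forms of a receptor, such as the epithelial and mesenchymal forms of Fgfr2, which bind different Fgfs.

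Upstream sequence is shown for 3 of the feedback genes, Dusp6 and Spry2 because they were called in opposite directions between whole-day and half-day labels, and Il17rd because it had the largest tooth difference of the members. Each window is the 250 bases before the start site, from RefSeq on GRCm38.p6, read on the strand of the gene. Capitals mark CGGAA, the core of the site that Ets factors such as Etv4 and Etv5 bind, or its reverse complement TTCCG. Dusp6 lies at chr10:99262981-99263230 on the plus strand, Il17rd at chr14:27038751-27039000 on the plus strand and Spry2 at chr14:105896820-105897069 on the minus strand. The end of the Il17rd window falls inside the gene span given below, which starts at 27038964.
Dusp6: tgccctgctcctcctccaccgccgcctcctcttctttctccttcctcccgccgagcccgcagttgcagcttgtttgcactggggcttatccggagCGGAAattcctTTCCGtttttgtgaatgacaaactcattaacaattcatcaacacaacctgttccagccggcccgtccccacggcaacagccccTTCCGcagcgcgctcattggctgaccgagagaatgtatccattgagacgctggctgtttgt
Il17rd: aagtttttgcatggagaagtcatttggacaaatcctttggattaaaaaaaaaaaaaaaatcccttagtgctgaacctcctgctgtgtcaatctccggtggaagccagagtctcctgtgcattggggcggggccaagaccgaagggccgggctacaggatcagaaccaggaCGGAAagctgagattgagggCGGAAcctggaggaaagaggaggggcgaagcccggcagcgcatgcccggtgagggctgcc
Spry2: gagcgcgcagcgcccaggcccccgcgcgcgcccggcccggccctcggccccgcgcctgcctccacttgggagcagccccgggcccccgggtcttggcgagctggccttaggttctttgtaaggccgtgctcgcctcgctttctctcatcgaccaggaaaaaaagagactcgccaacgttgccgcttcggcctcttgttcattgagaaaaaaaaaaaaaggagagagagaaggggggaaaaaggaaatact
Dusp6 held 3 matches and Il17rd held 2, while the Spry2 window held 0. The RefSeq promoter table matched 7 of 10 members with 9 windows, and Spry4, Etv4 and Fgfr1 had no entry. CGGAA on either strand occurred in 2 of these 9 windows and in 25.2% of all 32851 windows of that length. The longer Ets site CCGGAAG, which contains CGGAA (6.91% of all windows), the cAMP response element TGACGTCA (1.55%) and the AP-1 site TGACTCA (4.46%) were searched on both strands and occurred in 0 of the 9. CGGAA was searched after the longer site had given no match. These are matches of letters and not binding sites.

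**Figure D1:**
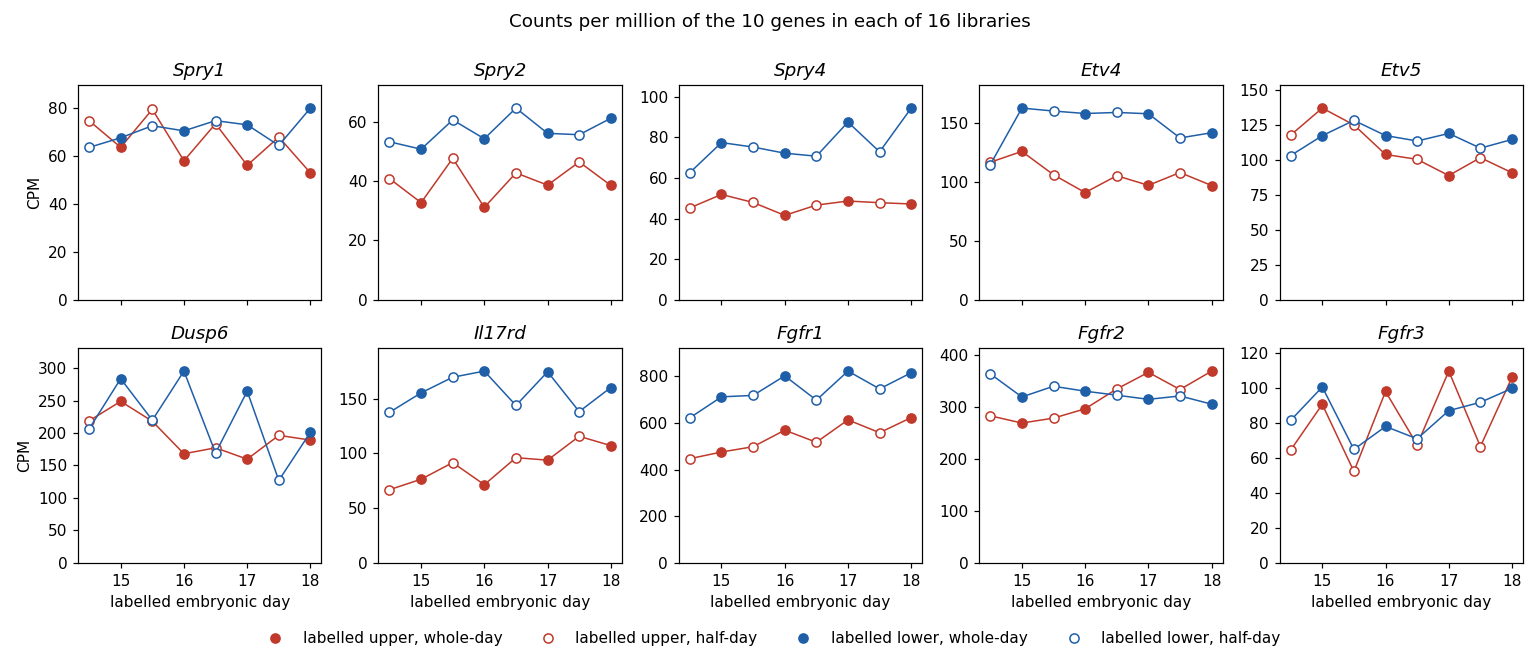
CPM (y axis, from 0) of each member against the labelled embryonic day (x axis), with 1 point per library, red for labelled upper and blue for labelled lower, filled at whole-day labels and open at half-day labels. The lines of Spry2, Spry4 and Il17rd stay apart, while Fgfr3 in labelled upper zigzags between 52.4 and 109.9 CPM.

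The question of the tooth comparison is which genes differ between upper and lower molar germs. Of the 10 members, 5 were lower in labelled upper than in labelled lower (Spry2, Spry4, Etv4, Il17rd and Fgfr1), and 0 were higher. Over all 16287 genes tested, 36.2% were called, 18.1% in that direction and 18.1% in the other. The median log2 difference (labelled upper minus labelled lower) was -0.31 over the members and 0.0059 over all genes. The feedback inhibitors Spry2, Spry4 and Il17rd had no overlap between the labels, which held for 3.52% of all genes in that direction and 2.89% in the other.

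Il17rd (chromosome 14, 27038964 to 27107286), a transmembrane protein that dampens Fgf receptor signalling, had the largest difference of the members. It measured 66.9 CPM at the lowest, 92.8 at the median and 116 at the highest in labelled upper, against 138, 158 and 175 CPM in labelled lower. Every library labelled upper lay below every library labelled lower. The log2 difference was -0.81 ± 0.09 (SE, with Benjamini-Hochberg adjusted p = 9.32e-06, edgeR's quasi-likelihood test).

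Spry4 (chromosome 18, 38586247 to 38601347), an intracellular antagonist of receptor tyrosine kinases, measured 41.6, 47.5 and 51.9 CPM (lowest, median, highest) in labelled upper, against 62.7, 74.1 and 94.4 CPM in labelled lower. The labels did not overlap. Its relative Spry2 (chromosome 14, 105891947 to 105896819) measured 31.1, 39.7 and 47.6 CPM in labelled upper, against 50.7, 55.8 and 64.5 CPM in labelled lower, also without overlap. The log2 difference was -0.69 ± 0.06 for Spry4 and -0.51 ± 0.09 for Spry2 (adjusted p = 3.19e-06 and 0.000376, edgeR's test). Spry1 (chromosome 3, 37639947 to 37644599) lay at 52.8, 65.6 and 79.3 CPM in labelled upper, against 63.4, 71.4 and 79.8 CPM in labelled lower. Its ranges overlapped and it did not pass (log2 -0.10 ± 0.08, adjusted p = 0.373 in the same edgeR test), so the Sprouty genes were not all called.

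Etv4 (chromosome 11, 101769747 to 101785310) and Etv5 (chromosome 16, 22381313 to 22439570) encode related Ets transcription factors that are induced by Fgf signals. Etv4 measured 90.9, 106 and 126 CPM in labelled upper, against 115, 158 and 162 CPM in labelled lower. The overlap came from labelled lower individual 1 alone, whose 115 CPM lay below the next library of that label at 137 CPM. The log2 difference of Etv4 was -0.48 ± 0.08 (adjusted p = 0.000252, edgeR's quasi-likelihood test). Etv5 measured 88.7, 103 and 137 CPM in labelled upper, against 103, 116 and 128 CPM in labelled lower. It did not pass (-0.10 ± 0.07, adjusted p = 0.279, edgeR's test), and without individuals 1 and 2 it did (-0.20, adjusted p = 0.0118, edgeR's test). Dusp6 (chromosome 10, 99263231 to 99267489), a phosphatase that switches off Erk, measured 159.7, 193 and 249 CPM in labelled upper, against 127, 213 and 295 CPM in labelled lower, with the range of labelled upper inside that of labelled lower (log2 -0.15 ± 0.13, adjusted p = 0.398, edgeR's test).

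Among the receptors, only Fgfr1 (chromosome 8, 25518759 to 25575718), the main receptor of mesenchyme, was called. It measured 447, 538 and 623 CPM in labelled upper, against 622, 732 and 822 CPM in labelled lower, was lower in labelled upper in 8 of 8 individuals though the ranges touched, and differed by -0.46 ± 0.04 (adjusted p = 2.89e-06, edgeR's quasi-likelihood test). Fgfr2 (chromosome 7, 130162451 to 130266808), whose epithelial form is needed for teeth to pass the bud stage in mice, shares 210 bases of exon with Ctbp2 on the same strand. It measured 269.5, 316 and 369.6 CPM in labelled upper, against 306, 322 and 364 CPM in labelled lower. Fgfr3 (chromosome 5, 33721724 to 33737068), known as a brake on cartilage growth, measured 52.4, 79.3 and 109.9 CPM in labelled upper, against 65.0, 84.5 and 101 CPM in labelled lower. Neither passed (log2 -0.05 ± 0.06 and -0.04 ± 0.14, adjusted p = 0.574 and 0.867, edgeR's test), and the range of Fgfr2 and of Fgfr3 in labelled upper took in that in labelled lower.

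The 5 calls held with the individual as a block, with any 1 individual left out and without individuals 1 and 2. In a whole germ, fewer cells of a type and less RNA per cell cannot be told apart. Enamel knot markers summed to 167 to 341 CPM in labelled upper and 390.1 to 851 CPM in labelled lower, with 7 of 10 lower in labelled upper and 0 higher. Cartilage markers had 4 of 8 lower and 1 higher, macrophage markers 4 of 7 lower in labelled upper and 0 higher, bone markers 1 of 8 lower and 3 higher, endothelium markers 3 of 8 lower and 1 higher, and skeletal muscle markers 0 of 8 lower and 1 higher. Dental mesenchyme markers had 2 of 10 lower and 5 higher, and dental epithelium markers 2 of 10 lower and 2 higher. None of the listed markers in the count tables was at 0 in all libraries. The part of these tissues in the member differences was not tested.

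**Figure D2:**
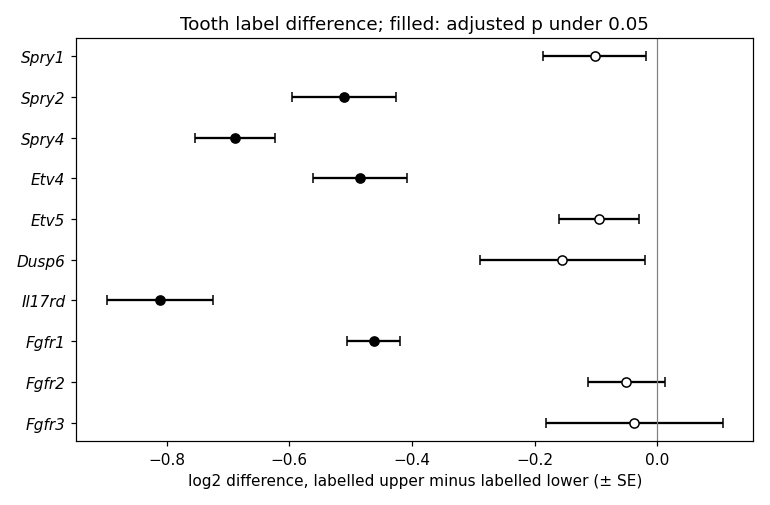
Log2 difference of each member, labelled upper minus labelled lower (x axis), with its standard error as the bar and a filled point where the adjusted p was under 0.05. The 5 filled points lie between -0.81 and -0.46, and the 5 open ones between -0.15 and -0.04.

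The stage trend asks which genes change as the germ grows. In labelled upper 3 members rose with the labelled stage, Il17rd, Fgfr1 and Fgfr2, and 1 fell, Etv5. Of all genes 6.13% passed, 3.72% rising and 2.41% falling. Fgfr2 measured 283.5 CPM at ED14.5, then 269.5, 279, 297, 335, 367, 334 and 369.6 CPM (ED18.0), and the last 4 libraries lay above the first 4. Its slope was 0.13 ± 0.03 log2 per day (adjusted p = 0.0213, edgeR's quasi-likelihood test). Fgfr1 rose by 0.12 ± 0.03 log2 per day (adjusted p = 0.0283, edgeR's test), with 447 to 569 CPM in the first 4 libraries and 517 to 623 CPM in the last 4. Il17rd rose by 0.19 ± 0.04 (adjusted p = 0.0256, edgeR's test), with 66.9 to 91.7 CPM in the first 4 and 93.9 to 116 CPM in the last 4. Etv5 went the other way at -0.15 ± 0.03 log2 per day (adjusted p = 0.0333, edgeR's test), with 104 to 137 CPM in the first 4 libraries and 88.7 to 101.5 CPM in the last 4. The other 6 members had slopes of -0.11 (Dusp6) to 0.13 (Fgfr3) log2 per day and did not pass (adjusted p = 0.183 to 0.973, edgeR's test).

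With 1 individual left out the slopes stayed at 0.17 to 0.21 for Il17rd, 0.11 to 0.14 for Fgfr1, 0.12 to 0.15 for Fgfr2 and -0.19 to -0.13 for Etv5. Each missed the threshold without individual 1, 2 or 8, Etv5 also without 3 or 6, and Fgfr1 without 3, with adjusted p up to 0.172 in edgeR's test. Skeletal muscle markers rose at 7 of 8 genes in labelled upper, with a summed level of 3.53 to 56.8 CPM there, and their part was not tested. The number in the file names changes between individuals 4 and 5, and with it as a term the slopes kept their signs (Fgfr2 0.05, Fgfr1 0.18, Il17rd 0.14 and Etv5 -0.09 log2 per day), with adjusted p of 0.316 to 0.71 in edgeR's test. The trend over the whole course and a step at that change of number cannot be told apart for these genes.

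In labelled lower 0 of 10 members passed, against 4.11% of all genes, 2.63% rising and 1.49% falling. At an unadjusted p under 0.05 there were 3 members, Spry4 (0.11 ± 0.04 log2 per day), Fgfr1 (0.09 ± 0.03) and Fgfr2 (-0.05 ± 0.02), against 22.2% of all genes. DESeq2's Wald test called 1, Fgfr1 (adjusted p = 0.032). Over all 16287 genes that test called 1010 rising and 774 falling. The remaining slopes there ran from -0.13 ± 0.10 (Dusp6) to 0.06 ± 0.06 (Fgfr3) log2 per day. Spry4 measured 62.7 CPM at ED14.5 and 94.4 CPM at ED18.0 there, with 70.7 to 87.5 CPM between, and Fgfr1 622 and 815 CPM, with 698 to 822 CPM between. With whole-day against half-day labels as a term, Fgfr1 (0.07 log2 per day, adjusted p = 0.0457, edgeR's test) and Dusp6 (-0.20, adjusted p = 0.015) were called in labelled lower and Spry1 (-0.07, adjusted p = 0.0466) in labelled upper. Calls over all 16287 genes rose too with this term. They came to 1115 rising and 674 falling in labelled lower, and 1251 and 901 in labelled upper.

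The slope of 1 member differed between the labels, against 1.28% of all genes, 0.682% with a higher slope in labelled upper and 0.602% with a lower one. The slope of Fgfr2 was higher in labelled upper by 0.18 ± 0.03 log2 per day (adjusted p = 0.0132, edgeR's quasi-likelihood test). In labelled lower it measured 364, 319.8, 340.4, 331, 323, 315, 322 and 306 CPM from ED14.5 to ED18.0, highest at the first label and lowest at the last, where labelled upper was highest. Without individual 1 or 8 the difference was as large (0.18 in both) and missed the threshold (adjusted p = 0.104 and 0.1002, edgeR's test). With the individual as a block, Etv5 was called too (-0.16, adjusted p = 0.0468, against 0.0747 without the block, edgeR's test). Over all 16287 genes the block gave 279 calls with a higher slope in labelled upper and 196 with a lower one. Without it there were 111 and 98.

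**Figure D3:**
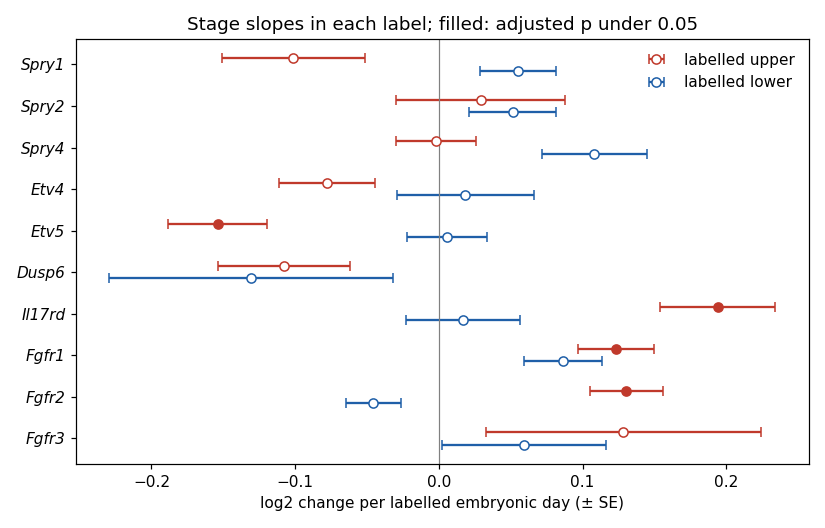
Log2 change per labelled embryonic day (x axis) of each member in labelled upper (red) and labelled lower (blue), with the standard error as the bar and a filled point where the adjusted p was under 0.05. The 4 filled points are all of labelled upper, and Fgfr2 has slopes of opposite sign in the labels.

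The alternation of Pou3f3 between whole-day and half-day stage labels was the reason to compare these stage groups for the Fgf genes. The individual is the unit here, with the counts of both its libraries summed, 4 individuals in each group and the labelled stage as a term. Of the 10 members, 3 were higher at whole-day labels, Fgfr3, Dusp6 and Fgfr1, and 1 was lower, Spry2. Of all genes 13.1% passed, 7.59% higher and 5.55% lower.

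Fgfr3 had the largest stage group difference of the members. In labelled upper it measured 90.8, 98.2, 109.9 and 106 CPM at whole-day labels, against 64.6, 52.4, 67.7 and 66.7 CPM at half-day labels. The groups did not overlap, as for 6.24% of all genes in that direction, and all 7 steps between neighbouring stages alternated, as for 22.6% of all genes in either direction. In labelled lower it measured 101, 78.2, 87.2 and 100.04 CPM at whole-day labels, against 81.7, 65.0, 71.1 and 92.0 CPM at half-day labels, and the groups overlapped. Over the individuals the log2 difference, whole-day minus half-day, was 0.42 ± 0.08 (adjusted p = 0.00852, edgeR's quasi-likelihood test). Of the receptor level per length in labelled upper, Fgfr3 held 13.1% to 14.6% at whole-day labels and 8.64% to 11.1% at half-day labels. In labelled lower its shares overlapped, at 8.8% to 12.02% at whole-day labels and 7.92% to 10.8% at half-day labels.

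Dusp6 measured 249, 168, 159.7 and 189 CPM at whole-day labels of labelled upper, against 219, 218, 177 and 196 CPM at half-day labels, and half-day libraries were the higher ones at 5 of 7 steps. In labelled lower it measured 284, 295, 264 and 201 CPM at whole-day labels, against 206, 219.7, 169 and 127 CPM at half-day labels. All 7 steps alternated there with whole-day labels high, and alternation at all 7 steps in either direction held for 19.5% of all genes. The log2 difference over the individuals was 0.33 ± 0.05 (adjusted p = 0.00143, edgeR's test), -0.04 ± 0.11 in labelled upper alone (adjusted p = 0.887) and 0.64 ± 0.09 in labelled lower alone (adjusted p = 0.00361).

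Fgfr1 measured 475, 569, 613 and 623 CPM at whole-day labels of labelled upper, against 447, 498, 517 and 558 CPM at half-day labels, and in labelled lower 712, 802, 822 and 815 CPM at whole-day labels, against 622, 718, 698 and 746 CPM at half-day labels. The groups overlapped in both labels. Its log2 difference was 0.14 ± 0.04 (adjusted p = 0.0389, edgeR's test), and 0.12 to 0.17 with 1 individual left out. It missed the threshold without individual 1, 4, 5, 6 or 7 (adjusted p up to 0.108, edgeR's test), and in labelled upper alone (0.11, adjusted p = 0.214) and labelled lower alone (0.14, adjusted p = 0.131).

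Spry1 and Spry2 ran the opposite way in labelled upper. Spry2 measured 32.7, 31.1, 38.6 and 38.5 CPM at whole-day labels there, against 40.8, 47.6, 42.7 and 46.4 CPM at half-day labels, and Spry1 63.5, 57.9, 56.0 and 52.8 CPM at whole-day labels, against 74.5, 79.3, 73.3 and 67.7 CPM at half-day labels. Neither gene overlapped between the groups, as for 3.31% of all genes in that direction, and both alternated at all 7 steps. In labelled lower Spry2 measured 50.7, 54.2, 56.0 and 61.1 CPM at whole-day labels, against 53.2, 60.5, 64.5 and 55.6 CPM at half-day labels, and Spry1 67.4, 70.3, 72.8 and 79.8 CPM at whole-day labels, against 63.4, 72.4, 74.6 and 64.2 CPM at half-day labels, with overlap for both. None of the 10 members separated the stage groups in labelled lower, as 5.02% of all genes did with whole-day labels higher and 2.49% with them lower. Over the individuals Spry2 differed by -0.20 ± 0.05 (adjusted p = 0.0199, edgeR's test) and Spry1 by -0.12 ± 0.05 (adjusted p = 0.130). Without individual 2, 4 or 5 Spry2 missed the threshold at -0.19, -0.18 and -0.19 (adjusted p up to 0.0699, edgeR's test), as it did without individuals 1 and 2 (-0.19, adjusted p = 0.0769). In labelled lower alone it was -0.12 ± 0.06 (adjusted p = 0.376, edgeR's test). Spry1 was called in labelled upper alone (-0.33 ± 0.05, adjusted p = 0.00328, edgeR's test) and not in labelled lower alone (0.05 ± 0.06, adjusted p = 0.78).

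Spry4, Etv4, Etv5, Il17rd and Fgfr2 did not pass, with log2 differences of -0.03 to 0.13 (adjusted p = 0.172 to 0.9, edgeR's test). The difference between the labels in this alternation was tested itself. It was called for 0 of 16287 genes (0% in either direction) by edgeR's quasi-likelihood test, and for 49 and 18 genes in the 2 directions by DESeq2's Wald test, Dusp6 among the 18 (adjusted p = 0.0499). At an unadjusted p under 0.05 in edgeR's test there were 5 members, against 4.91% of all genes. These were Spry1 (labelled upper minus labelled lower -0.43 ± 0.11 on the log2 scale), Spry2 (-0.26 ± 0.08), Spry4 (-0.22 ± 0.09), Dusp6 (-0.64 ± 0.19) and Fgfr3 (0.45 ± 0.13), with adjusted p of 0.473 to 0.951.

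Markers of the 2 main tissues of the germ alternated with the same labels. Dental epithelium markers were lower at whole-day labels at 9 of 10 genes and higher at 0, and their sum ran from 3966 to 4817 CPM at whole-day labels of labelled upper, against 5115 to 6237 CPM at half-day labels, and in labelled lower from 4321.5 to 4579 CPM at whole-day labels, against 4972 to 5636 CPM at half-day labels. Dental mesenchyme markers were higher at 8 of 10 and lower at 0, with sums of 2900.1 to 3121.5 CPM at whole-day labels of labelled upper, against 2452 to 2744 CPM at half-day labels, and in labelled lower 2358 to 2785 CPM at whole-day labels, against 1902.5 to 2297 CPM at half-day labels. Neither sum overlapped between the stage groups in either label. Enamel knot markers were lower at 3 of 10, and cartilage markers were higher at 2 of 8 and lower at 2. Bone markers were higher at 2 of 8, macrophage markers lower at 1 of 7, and endothelium and skeletal muscle markers moved at 0 of 8 each. Whether these shifts account for the alternation of Fgfr3, Dusp6, Fgfr1, Spry1 or Spry2 was not tested.

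**Figure D4:**
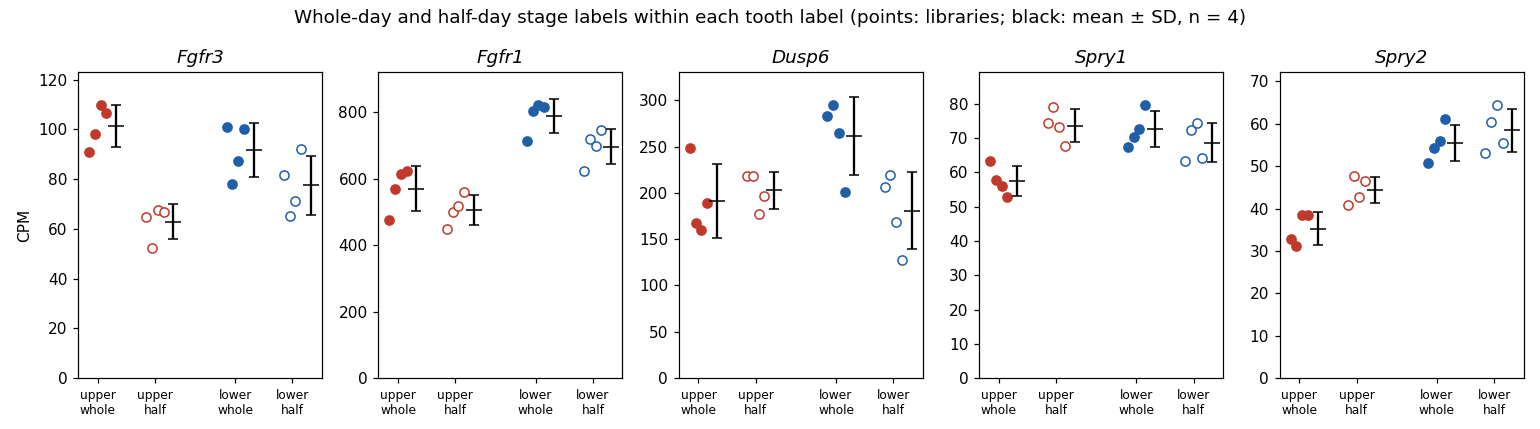
CPM (y axis, from 0) of 5 members at whole-day (filled) and half-day (open) stage labels within labelled upper (red) and labelled lower (blue), with 1 point per library and the mean ± SD of 4 libraries in black. Fgfr3, Spry1 and Spry2 separate in labelled upper, and Dusp6 shows its widest gap in labelled lower.

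**Figure D5:**
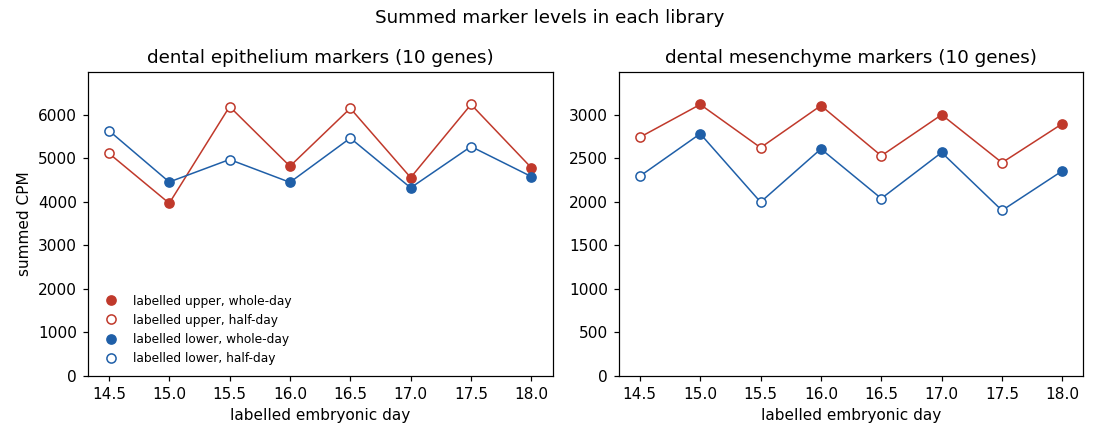
Summed CPM (y axis, from 0) of 10 dental epithelium markers (left) and 10 dental mesenchyme markers (right) against the labelled embryonic day, with 1 point per library, red for labelled upper and blue for labelled lower. Epithelial sums dip and mesenchymal sums peak at whole-day labels (filled) in both labels.

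Other genes of the pathway moved in both directions. Of 22 listed Fgf ligand genes 18 were tested, and 9 were higher and 4 lower in labelled upper, where 36.2% of all genes passed. Fgf9, an epithelial ligand, differed by -1.39 ± 0.12 on the log2 scale. Fgf13, an intracellular relative of the secreted Fgfs, differed by 0.72 ± 0.09 and Fgf18 by 1.81 ± 0.27. Levels of Fgf18 were low, at 1.44 to 4.15 CPM in labelled upper and 0.325 to 1.32 CPM in labelled lower. The median was 0.40 over the ligands and 0.0059 over all genes. Of 6 other receptor and co-receptor genes tested 2 were higher in labelled upper, Flrt3 (0.41 ± 0.07) and Flrt2 (0.30 ± 0.05). Of 16 relay genes 3 were higher and 5 lower, among them Gab1, an adaptor, at 0.46 ± 0.05 and the kinase genes Braf at -0.42 ± 0.03 and Map2k1 at -0.35 ± 0.05. Of 14 other feedback and Erk response genes 3 were higher and 6 lower. The cyclin gene Ccnd1 was at -1.08 ± 0.05, the phosphatase gene Dusp5 at -1.18 ± 0.11 and Myc at 0.46 ± 0.06. Levels of Dusp5 were low, at 1.26 to 2.08 CPM in labelled upper and 2.72 to 5.62 CPM in labelled lower. With stage in labelled upper, where 6.13% of all genes passed, 2 of 18 ligands rose and 3 fell, Fgf15 at -0.79 ± 0.12 and Fgf20 at -0.54 ± 0.09 log2 per day among them. Both were at low levels there, Fgf15 at 0.483 to 3.998 CPM and Fgf20 at 1.99 to 6.76 CPM. Fgf9 rose in labelled upper by 0.35 ± 0.07 log2 per day, and in labelled lower Fgf3, an enamel knot and mesenchyme ligand, rose by 0.37 ± 0.05. Of the 14 feedback and response genes 1 rose and 1 fell in labelled upper, and 1 rose and 0 fell in labelled lower. Ccnd1 rose in both labels, by 0.19 ± 0.02 log2 per day in labelled upper and 0.25 ± 0.03 in labelled lower. Dusp7 fell in labelled upper (-0.12 ± 0.02). Of the 6 receptors and co-receptors Fgfr4 rose in labelled upper (0.41 ± 0.08, at 1.3 to 3.89 CPM). Flrt2 fell in labelled lower (-0.13 ± 0.03). The relay genes had 0 of 16 called for stage in either label, against 6.13% of all genes in labelled upper and 4.11% in labelled lower. Between the stage groups 13.1% of all genes passed, and 3 of 18 ligands, 1 of 6 receptors and co-receptors, 3 of 16 relay genes and 2 of 14 feedback and response genes. Fgf7 (0.85 ± 0.14) and Fgf10 (0.22 ± 0.03), ligands made by mesenchyme, were higher at whole-day labels and Fgf1 (-0.56 ± 0.12) was lower. Levels of Fgf7 were low, at 2.5 to 7.28 CPM in labelled upper and 1.31 to 3.75 CPM in labelled lower. For Fgf1 they were 1.82 to 4.48 CPM in labelled upper and 3.79 to 12.8 CPM in labelled lower. Flrt1 (0.26 ± 0.06) and Spred2 (0.11 ± 0.03), an Erk pathway inhibitor, were higher at whole-day labels, and Phlda1 (-0.34 ± 0.06), Nras (-0.15 ± 0.02), Map2k1 (-0.17 ± 0.03) and Ptpn11 (-0.12 ± 0.03) were lower. All these calls are at an adjusted p under 0.05 in edgeR's quasi-likelihood test.

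The genes with the most similar course were found by the root mean square difference of log2 CPM, each centred on its own mean, over the 16 libraries and 13602 genes. Nearest to Fgfr1 was Aph1b at 0.0692, against a spread of 0.276 for Fgfr1 itself, then Wipf1 at 0.0883. Il17rd was nearest to Lancl1 (0.116) and Tcf4 (0.134), against its own spread of 0.46. Spry2 was nearest to Cd24a (0.101) and Tspan5 (0.115) and Spry4 to Rnf150 (0.131) and Sh3rf1 (0.138), with spreads of 0.31 and 0.372. Etv4 was nearest to Yod1 (0.131) and Nr1d2 (0.143), and Etv5 to Diap3 (0.0709) and Kif18a (0.0807). Spry1 was nearest to Chek2 (0.098) and Kifc5b (0.102), Dusp6 to Hs3st6 (0.173) and Neil3 (0.189), Fgfr2 to Aldh3a2 (0.0737) and Slc29a3 (0.0832), and Fgfr3 to Adcy9 (0.136) and 2510009E07Rik (0.147). The spread of Dusp6 was 0.312 and that of Fgfr2 0.133. No member was among the 2 nearest genes of another member. The libraries share tooth label, file-name code and tissue makeup, so a small difference says only that the levels ran alike.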

How the data were processed

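The authors deposited raw, whole-number gene counts, 1 file for each of the 16 libraries. The submitters' processing notes name HTSeq 0.5.3p9, TopHat2 2.0.6 and Bowtie2 2.0.2, and the build mm10. The annotation and strand setting of the counting are not stated there or in the labels. On GENCODE M21 the genes that overlap a member are Ctbp2 for Fgfr2 and opposite-strand models for Fgfr1, Fgfr3 and Spry1. Only Ctbp2 was among the genes counted. Whether reads in these overlaps were set aside as ambiguous or counted to the member is therefore unknown.

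The 5 summary lines were left out; reads on no feature made up 12.6% to 15.1%. Genes with at least 0.269 CPM, which is 10 counts at the median depth, in at least 2 libraries were tested in R 4.3.3 by quasi-likelihood F tests of edgeR 4.0.16. Scaling was TMM, adjustment Benjamini-Hochberg over all 16287 genes and the threshold 0.05. A standard error is the size of the log2 value over the root of F. Differences between tooth labels were fitted beside a natural spline of stage with 3 df, and the slope difference added the interaction of label and linear stage. Slopes were linear within a label. The stage group difference used counts summed per individual with linear stage, and its difference between labels had the individual as a block. Log2 CPM in the search for similar genes used a prior count of 2. With 1 embryo per stage by the labels, p-values set each effect against the scatter about the fitted terms. For the tooth difference, the slopes and the slope difference this scatter includes the alternation between stage groups, which these curves do not follow. For the stage group difference between labels it is scatter within individuals, with no stage curve.

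All members were fitted in every comparison, though not every member that missed the threshold is named. Named genes of a pathway list come from up to 3 past the threshold with the smallest p. They have a mean count of at least 50, and not all of them are printed. The members and lists were chosen with earlier results of these data known. The labels pair the teeth of an individual, and the deviations of a pair from the label means correlated over genes (r = 0.121 to 0.278), though in 4 of 8 individuals another pairing correlated more. Alternatives were DESeq2 1.42.0, other scalings, no filter, added terms and individuals left out. The tests were also run on simulated counts with known changes. Those libraries were drawn independently, with no effect of the individual or of the file-name number and no curved stage course. The simulation therefore cannot show how the tests behave where such effects are present.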

Additional observations from a re-analysis of the deposited data

Results flagged for a closer look

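Fgfr2 was the 1 member whose stage slope differed between the tooth labels by the test of the difference itself, 0.18 ± 0.03 log2 per day higher in labelled upper (adjusted p = 0.0132, edgeR's quasi-likelihood test). The slope was 0.13 ± 0.03 in labelled upper and -0.05 ± 0.02 in labelled lower. The difference was 0.18 without individual 1, 0.18 without individual 8 and 0.20 without individuals 1 and 2, and missed the threshold in each (adjusted p = 0.104, 0.1002 and 0.333, edgeR's test).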

How the results depend on the processing

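For the tooth difference the same 5 members were called under every alternative, the replicate block included, and Etv5 joined them without individuals 1 and 2, a setting chosen after seeing the data. For the slope in labelled upper 4 members were called, but 0 with the number in the file names as a term, 0 without individuals 1 and 2, and 0 to 4 with 1 individual left out. For labelled lower 0 were called, against 1 by DESeq2 and 2 with the stage group as a term. For the slope difference 1 was called, against 2 by DESeq2, 2 with the replicate block, 0 without individuals 1 and 2, and 0 to 1 with 1 individual left out. For the stage groups 4 were called, against 1 in labelled lower alone and 2 to 4 with 1 individual left out. For the difference of the stage groups between labels 0 were called, against 1 by DESeq2. The causes were not tested.

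Over all genes, 606 rose and 393 fell with stage in labelled upper, against 1161 and 890 by DESeq2, 1251 and 901 with the stage group, 1 and 1 with that number, 15 and 3 without individuals 1 and 2, and 137 to 747 and 55 to 654 with 1 left out. In labelled lower 428 and 242 became 1010 and 774, 1115 and 674, 16 and 3, 1 and 0, and 30 to 473 and 4 to 285 in the same order. The slope difference had 111 and 98, against 307 and 292 by DESeq2, 279 and 196 with the block, 0 and 0 without individuals 1 and 2, and 8 to 71 and 6 to 68 with 1 left out. The stage groups had 1236 and 904, against 822 and 523 in labelled upper alone, 590 and 466 in labelled lower alone, and 745 to 1072 and 558 to 777 with 1 left out. Between labels 0 and 0 became 49 and 18 by DESeq2, 2 and 0 without individuals 1 and 2, and 0 to 3 and 0 to 1 with 1 left out.

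Signs turned only for members that were not called, apart from Dusp6 between the stage groups in labelled upper alone (-0.038). Without individuals 1 and 2, log2 tooth differences were 0.028 for Fgfr2 and 0.015 for Fgfr3, slopes in labelled upper -0.012 for Spry2 and 0.025 for Spry4, and slopes in labelled lower -0.079 for Etv4, -0.056 for Etv5 and -0.059 for Il17rd. There the slope differences were 0.076 for Etv4 and -0.0069 for Fgfr3, the stage group differences -0.032 for Etv4, -0.042 for Etv5 and 0.0093 for Fgfr2, and the difference between labels 0.035 for Fgfr1. With the file-name number as a term Spry2 had -0.072 in labelled upper and Dusp6 0.091 in labelled lower. Spry4 had 0.00020 in labelled upper with library totals, and Il17rd -0.00021 in labelled lower with the stage group. The stage group difference was 0.046 for Spry1 in labelled lower alone, and in labelled upper alone -0.056 for Etv4, -0.021 for Etv5, -0.19 for Il17rd and 0.0060 for Fgfr2.

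With 1 individual left out, the tooth difference of Fgfr3 ran from -0.11 to 0.0095. Slopes in labelled upper ran from -0.0074 to 0.056 for Spry2 and -0.018 to 0.021 for Spry4, and in labelled lower from -0.069 to 0.049 for Etv4, -0.037 to 0.020 for Etv5 and -0.028 to 0.044 for Il17rd. Slope differences ran from -0.063 to 0.014 for Spry2 and -0.083 to 0.10 for Dusp6. Stage group differences ran from -0.024 to 0.083 for Etv4, -0.035 to 0.063 for Etv5 and -0.049 to 0.0058 for Fgfr2, and the difference between labels from -0.030 to 0.036 for Fgfr1. The lowest member count was 1147, so no member lay near the filter on low counts.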
